A study of Homo sapiens with 9 samples.

Results

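The nuclear-encoded subunits of the respiratory chain are the proteins of complexes I to V that are made from nuclear genes and imported into mitochondria. They were chosen by gene symbol alone, with no use of the measured values: the protein-coding genes NDUFA, NDUFB, NDUFC, NDUFS and NDUFV with a number, SDHA to SDHD, CYC1 and the genes named UQCR, COX4 to COX8 and ATP5, leaving out read-through genes. This gave 89 of the 58735 genes in the files, of which 19951 were protein-coding. Complex I held 36 of them, complex II 4, complex III 10, complex IV 19 and complex V 20. NDUFA4 and NDUFA4L2, named after complex I, were placed in complex IV, where the NDUFA4 protein is now assigned. Matching by name also took in 3 genes that are not ordinary subunits, namely ATP5IF1, an inhibitor of complex V, ATP5S, a coupling factor, and COX7A2L, a supercomplex factor. It left out NDUFAB1, a subunit of complex I whose symbol does not have this form.

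MDA-MB-231 is an established cell line of triple-negative breast cancer. RNA was sequenced in 9 libraries, 3 of cells given the vehicle DMSO, 3 of erastin-R cells and 3 of RSL3-R cells. Erastin-R cells had survived increasing concentrations of erastin, an inhibitor of the cystine importer system xc-, and RSL3-R cells had survived increasing concentrations of RSL3, an inhibitor of the lipid peroxide-reducing enzyme GPX4. Both agents kill by ferroptosis. The labels do not say whether the 3 libraries of a group came from separate cultures, so p-values measure the spread between these libraries, which may be technical.

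Complexes I and II pass electrons from NADH and succinate to ubiquinone, complex III passes them to cytochrome c, and complex IV passes them to oxygen. Complexes I, III and IV pump protons across the inner mitochondrial membrane, and complex V uses the return flow to make ATP. Complexes I, III, IV and V are built from nuclear and mitochondrial gene products together, whereas complex II is made wholly from nuclear genes.

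Total counts ranged from 15405102 to 17273464 per library, and levels are given as CPM, the count of a gene over the total count of its library, scaled by the trimmed mean of M-values. Of the line's 4 markers, mean VIM ranged from 1345 to 1473 CPM over the 3 groups and MSN from 1419 to 1660. Neither passed against vehicle with all libraries. Without erastin-R replicate 1 both were called, VIM at -0.10 for erastin-R and -0.13 for RSL3-R, MSN at -0.15 and 0.19. KRT18 fell by 1.12 for erastin-R (adjusted p = 9.48e-08, edgeR) and had 0.02 for RSL3-R. CD44 fell by 0.155 and 0.425 (adjusted p = 0.0343 and 3.42e-05). ERBB2 fell by 0.19 and 0.59 (adjusted p = 0.0352 and 1.21e-05). ESR1 was at most 0.546 CPM and PGR at most 0.0815. Of the 6 markers of other cells, CD68, VWF, DCN and PTPRC were at 1.37 CPM or below in each group mean, COL1A1 ranged from 7.70 to 10.1 and PECAM1 was at 9.98, 1.79 and 12.8 for vehicle, erastin-R and RSL3-R. PECAM1 fell by 2.47 on the log2 scale in erastin-R cells (adjusted p = 8.28e-08, edgeR) and PTPRC rose by 1.67 in RSL3-R cells (adjusted p = 0.00818), and their part in the results was not tested. Of the 89 genes, 82 had enough counts to be tested among the 16188 genes tested. The other 7 were the tissue-restricted isoforms COX4I2, COX6A2, COX6B2, COX7B2, COX8C and NDUFA4L2 and the copy ATP5MGL, none with more than 16 counts in a library, and COX6A2 and COX7B2 had 0 counts in all 9.

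Erastin-R replicate 1 stood apart from the other erastin-R libraries over these genes. The median SD of log2 CPM within a group was 0.16 in erastin-R against 0.09 in vehicle and 0.082 in RSL3-R cells. In replicate 1, 10 genes were higher and 4 lower than the mean of replicates 2 and 3 by more than 0.5 on the log2 scale, and mitochondrial DNA genes took 7.95% of its counts against 5.55% and 5.84%. Many of the named genes and counts whose call or size depends on this library are given with and without it.

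More subunit genes fell than rose in both survivor groups, and more fell in RSL3-R than in erastin-R cells. In RSL3-R cells 55 of the 82 tested genes fell, 3 rose and 24 did not pass an adjusted p of 0.05 in the quasi-likelihood test of edgeR, with a median log2 fold change of -0.39. Over all genes tested, 24.9% were called lower and 23.8% higher in that comparison, and the median was 0.005. Leaving out erastin-R replicate 1 gave 62 rather than 55 lower subunit genes there, beside 29.8% of all genes. In erastin-R cells 39 fell, 7 rose and 36 did not pass, with a median of -0.18. The background there was 26.8% lower and 27.1% higher, with a median of -0.004. Without erastin-R replicate 1, 44 rather than 39 fell and 14 rather than 7 rose, with a median of -0.19. Of all genes, 30.8% were then lower and 30.0% higher. With all libraries the changes were moderate. Adding a 2-fold limit (log2 fold change of 1 or more in size) called 13.4% of all genes for erastin-R and 10.1% for RSL3-R. Of the subunit genes, only NDUFV2 was then called in erastin-R cells, as higher, and COX6A1 and ATP5MC1 in RSL3-R cells, as lower. Without erastin-R replicate 1, 5 of 83 subunit genes were lower and 2 higher past this limit in erastin-R cells, beside 1262 and 1198 of 16188 genes. In bulk RNA, a lower level in every cell and fewer cells with a high level cannot be told apart.

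The direct comparison of the survivor groups, which does not use the vehicle mean, gave 31 subunit genes lower and 5 higher in RSL3-R than in erastin-R cells, with 46 not passed and a median of -0.12. Over all genes 26.9% were lower and 22.3% higher, with a median of -0.024, and 10.3% also passed the 2-fold limit, among them COX7A1 and COX8A. Without erastin-R replicate 1, 32 were lower and 16 rather than 5 higher, beside 30.6% and 27.3% of all genes, the median being -0.05. Past the 2-fold limit, 4 rather than 2 were then lower and 1 rather than 0 higher, beside 748 and 1276 of 16188 genes. The median was -0.055 without RSL3-R replicate 1 and -0.026 with quantile normalization, which called 11 higher, while 3 were higher without erastin-R replicate 3 or RSL3-R replicate 3. The summed level of the 89 genes was 6483 ± 114 CPM in vehicle, 5906 ± 73.5 for erastin-R and 4995 ± 31.7 for RSL3-R (SD, n = 3), that is 91.1% and 77.0% of the vehicle mean in the survivors. The 3 groups did not overlap, with libraries between 6352 and 6551, between 5852 and 5990, and between 4961 and 5024 CPM.

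**Figure D1:**
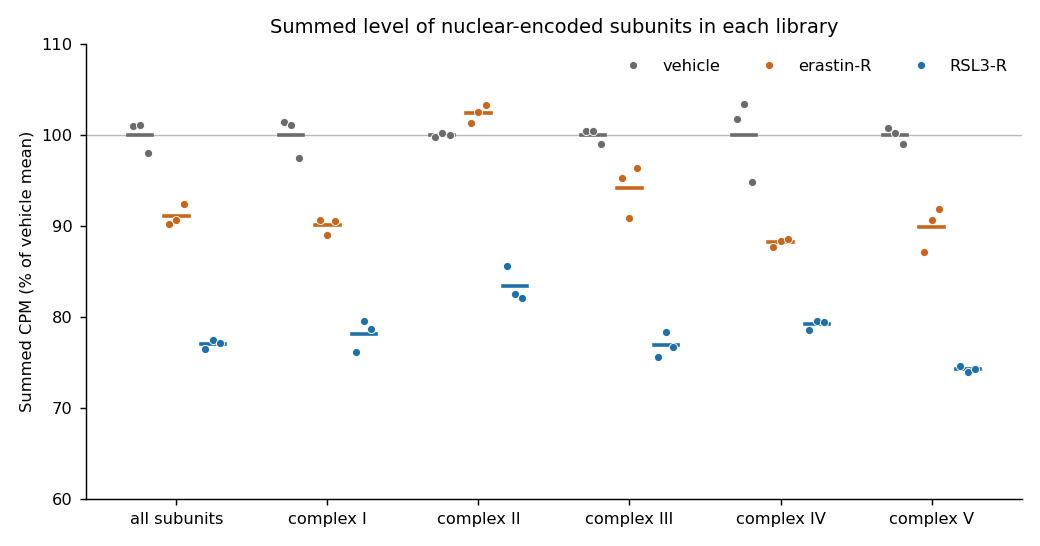
Summed CPM of the subunit genes of each complex, as a percentage of the mean of the 3 vehicle libraries; points are libraries, bars are group means, and the axis starts at 60%. The RSL3-R libraries lie lowest for every complex, with means from 74.3% for complex V to 83.4% for complex II, and erastin-R libraries lie above the vehicle libraries for complex II alone, at 102%.

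By complex, erastin-R cells had 17 lower and 5 higher of 36 tested genes in complex I, 4 lower and 1 higher of 10 in complex III, 6 lower and 1 higher of 13 in complex IV and 12 lower and 0 higher of 19 in complex V. None of the 4 complex II genes passed in erastin-R cells, either in the quasi-likelihood test or at an unadjusted p of 0.05, and DESeq2 also called 0. In RSL3-R cells 23 fell and 2 rose in complex I, 2 fell in complex II, 6 fell in complex III, 9 fell and 1 rose in complex IV, and 15 fell in complex V, with 0 higher in complexes II, III and V there by edgeR, by DESeq2 or at an unadjusted p of 0.05. The median log2 fold change by complex in RSL3-R cells was -0.32 for complex I, -0.16 for II, -0.50 for III, -0.43 for IV and -0.45 for V. In erastin-R cells the medians were -0.13, 0.07, -0.25, -0.12 and -0.35. Without erastin-R replicate 1, 19 genes fell and 6 rose in complex I, 1 of complex II rose, 6 fell and 3 rose in complex III, 6 fell and 3 rose in complex IV and 13 fell and 1 rose in complex V. In RSL3-R cells 25 of complex I, 7 of III, 11 of IV and 17 of V then fell. In RSL3-R cells, 14 rather than 23 of complex I fell without RSL3-R replicate 1.

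**Figure D2:**
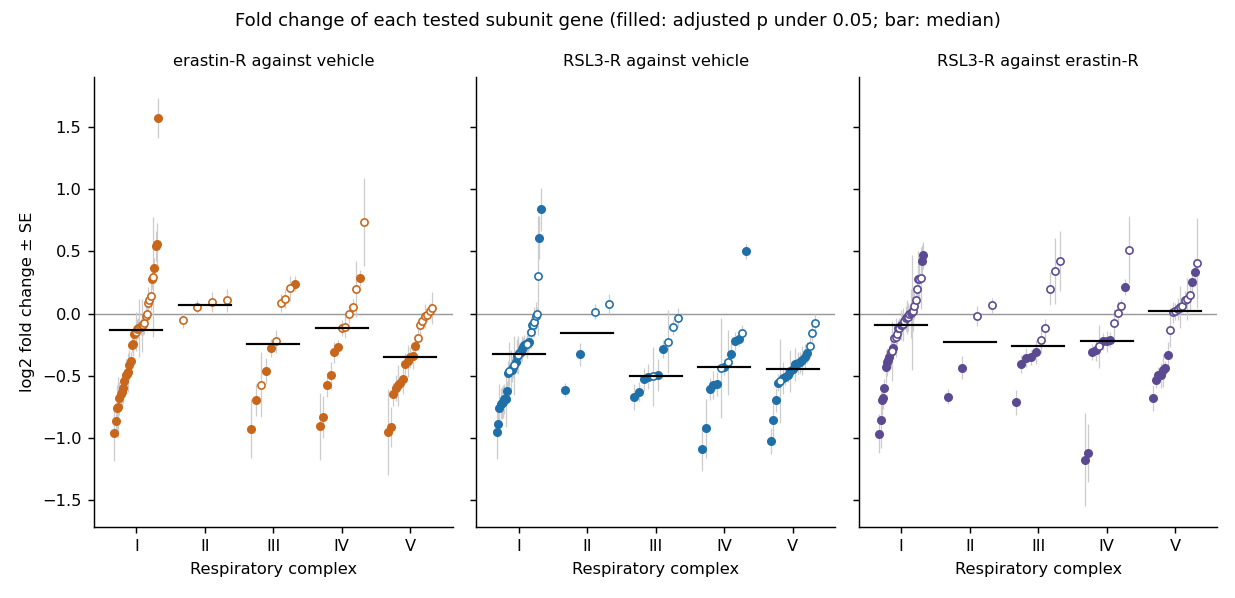
The log2 fold change of each tested subunit gene with its standard error, ordered within each complex, for the 3 comparisons; filled points passed an adjusted p of 0.05, open points did not, and horizontal bars are medians. In RSL3-R against vehicle 55 filled points lie below 0 and 3 above.

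**Figure D3:**
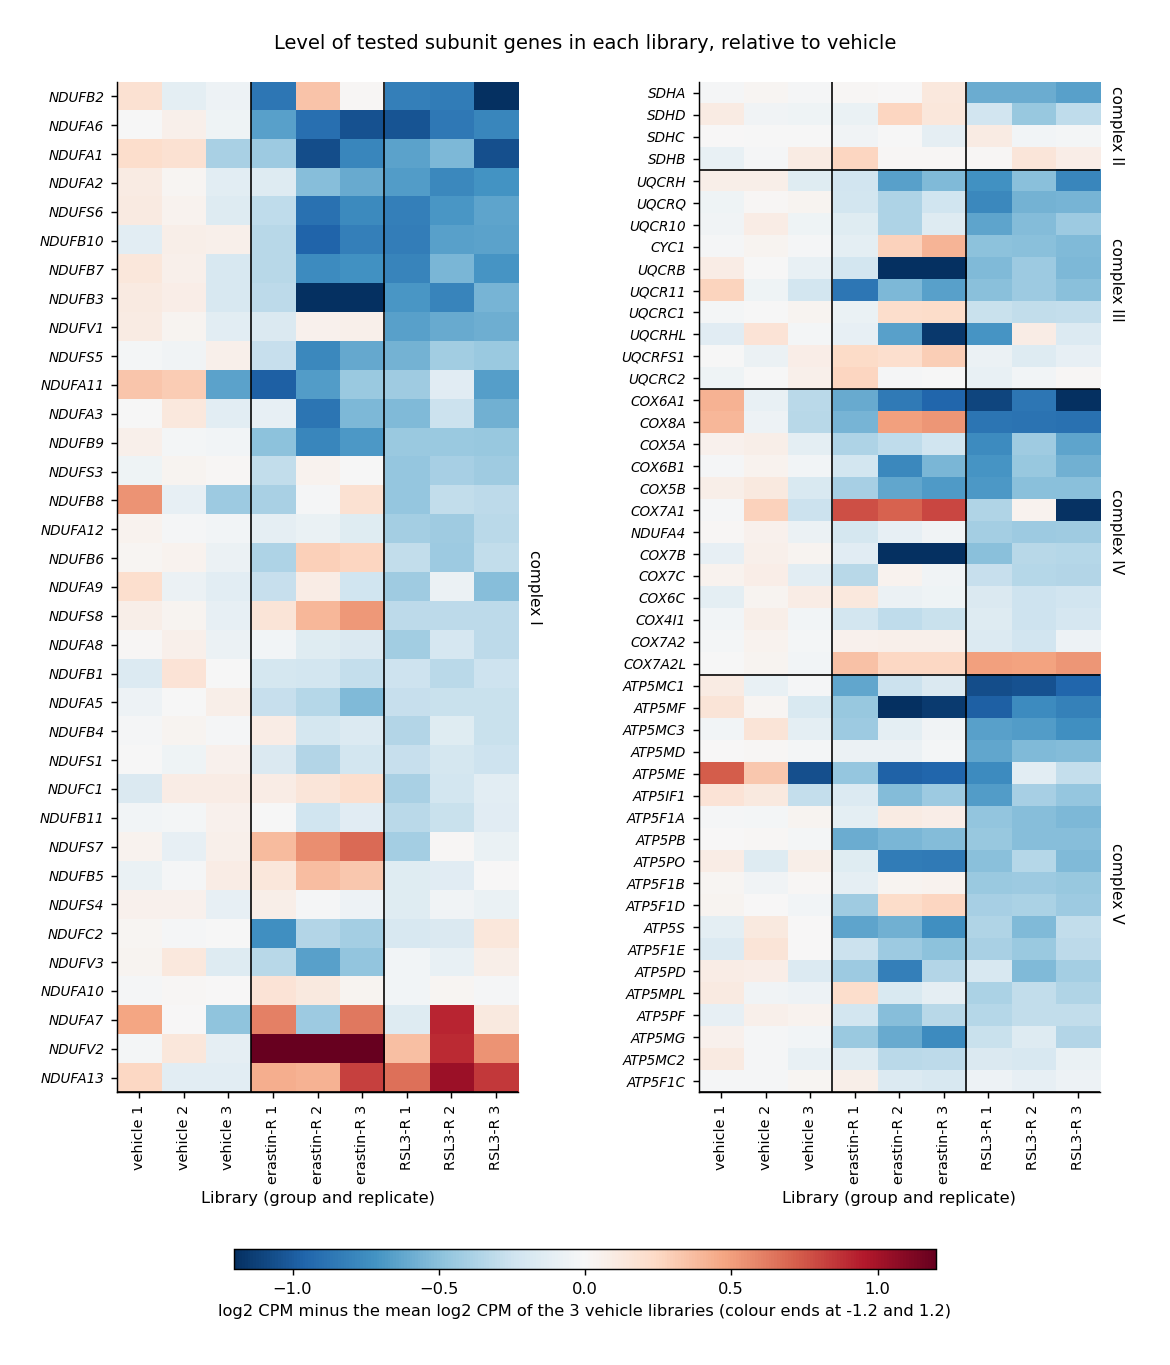
Level of 81 of the 82 tested subunit genes (rows, by complex) in each library (columns), as log2 CPM minus the mean of the vehicle libraries; blue is lower and red higher, and the colour scale ends at -1.2 and 1.2. RSL3-R columns are blue in most rows and alike among themselves, and erastin-R replicate 1 departs from replicates 2 and 3 in rows such as UQCRB, COX7B and COX8A.

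Promoters of the genes were searched for motifs of factors known for respiratory chain genes. Windows from 250 bases before to 50 bases after the start were taken from RefSeq (GRCh38.p14), which matched 70 of the 89 genes. They were searched on both strands for GCGCA and GCGC with any base between them, the core of the site of NRF1 (nuclear respiratory factor), for CCGGAAG, an ETS site of the kind bound by GABPA, and for AAGATGGC, a site of YY1. None of these motifs contains another. At least 1 match was found for NRF1 in 24.3% of the 70 genes, against 6.98% of all 27305 genes in the table, for GABPA in 30.0% against 12.2%, and for YY1 in 17.1% against 3.52%. Any of the motifs was present in 58.6% of the subunit genes and in 5464 of all 27305 genes. Of the 44 matched genes that fell in RSL3-R cells, 17 had the GABPA motif and 11 the NRF1 motif, and of the 21 other tested ones 4 and 5 had them. The YY1 motif was in 6 of the 44 and in 6 of the 21. These shares are descriptions of letters in a window and were not tested.

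The 250 bases before the start are shown for the gene with the largest decrease in RSL3-R cells in each complex among those with 1 start in the table, and for NDUFA13, which rose. Each reads 5′ to 3′ on the gene's strand with matches to the 3 motifs in capitals.
NDUFB2 (chr7:140696458-140696707, plus strand): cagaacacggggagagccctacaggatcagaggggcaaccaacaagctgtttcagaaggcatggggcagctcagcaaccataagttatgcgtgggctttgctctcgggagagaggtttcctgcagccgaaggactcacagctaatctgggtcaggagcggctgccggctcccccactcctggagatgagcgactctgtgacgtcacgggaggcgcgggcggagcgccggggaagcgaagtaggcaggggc
SDHA (chr5:218070-218319, plus strand): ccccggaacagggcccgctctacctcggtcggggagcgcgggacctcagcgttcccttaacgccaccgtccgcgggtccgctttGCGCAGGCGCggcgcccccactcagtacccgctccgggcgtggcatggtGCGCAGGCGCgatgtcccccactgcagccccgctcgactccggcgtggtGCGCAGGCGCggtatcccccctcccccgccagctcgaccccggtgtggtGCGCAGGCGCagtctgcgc
UQCRH (chr1:46303448-46303697, plus strand): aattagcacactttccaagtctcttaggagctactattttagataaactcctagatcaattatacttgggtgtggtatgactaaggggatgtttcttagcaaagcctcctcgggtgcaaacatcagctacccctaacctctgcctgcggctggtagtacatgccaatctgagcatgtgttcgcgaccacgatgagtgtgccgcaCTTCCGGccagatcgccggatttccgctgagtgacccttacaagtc
COX6A1 (chr12:120437863-120438112, plus strand): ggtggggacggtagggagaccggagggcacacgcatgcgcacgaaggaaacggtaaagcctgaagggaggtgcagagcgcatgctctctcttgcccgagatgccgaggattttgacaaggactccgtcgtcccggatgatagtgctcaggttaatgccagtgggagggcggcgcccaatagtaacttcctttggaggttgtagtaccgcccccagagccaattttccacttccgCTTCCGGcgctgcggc
ATP5MC1 (chr17:48892537-48892786, plus strand): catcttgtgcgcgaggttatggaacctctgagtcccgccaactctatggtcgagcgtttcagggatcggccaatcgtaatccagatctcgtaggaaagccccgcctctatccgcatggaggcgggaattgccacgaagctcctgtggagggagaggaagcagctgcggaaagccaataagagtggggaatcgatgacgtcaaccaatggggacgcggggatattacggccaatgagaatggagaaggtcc
NDUFA13 (chr19:19515975-19516224, plus strand): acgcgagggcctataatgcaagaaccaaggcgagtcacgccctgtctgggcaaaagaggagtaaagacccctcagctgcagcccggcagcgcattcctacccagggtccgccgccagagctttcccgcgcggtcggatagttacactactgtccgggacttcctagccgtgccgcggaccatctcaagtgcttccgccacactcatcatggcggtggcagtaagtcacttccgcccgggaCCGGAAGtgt
The window of SDHA holds 4 copies of the NRF1 motif, those of UQCRH, COX6A1 and NDUFA13 hold 1 GABPA motif each, and those of NDUFB2 and ATP5MC1 hold none of the 3 motifs. NDUFA13, which rose, has the same GABPA motif as UQCRH and COX6A1, which fell.

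Complex I, the NADH dehydrogenase, has 7 nuclear-encoded core subunits that carry the flavin, the iron-sulphur clusters and the path to ubiquinone, and the other 29 genes encode accessory subunits. NDUFV1 (chr11:67605653-67612554), which binds NADH and the flavin, was at 149, 143 and 128 CPM in the vehicle libraries, 124, 145 and 146 in erastin-R and 88.9, 91.6 and 92.8 in RSL3-R. All RSL3-R libraries lay below the others, whereas erastin-R and vehicle overlapped. NDUFV1 fell by 0.62 ± 0.076 on the log2 scale in RSL3-R (SE, adjusted p = 1.50e-05) and had -0.02 ± 0.075 in erastin-R cells (adjusted p = 0.84), and the direct difference was -0.60 ± 0.076 (adjusted p = 2.50e-05).

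NDUFS8 (chr11:68030617-68036644), an iron-sulphur subunit next to the quinone path, was the one gene of the 82 called in opposite directions with all libraries. With erastin-R replicate 1 left out, CYC1, COX8A, UQCRC1 and SDHD were also called higher in erastin-R and lower in RSL3-R cells. NDUFS8 was at 107, 104 and 94.9 CPM in vehicle, 113, 134 and 146 in erastin-R and 82.0, 81.9 and 81.6 in RSL3-R libraries, with no overlap between any of the groups. It rose by 0.36 ± 0.084 in erastin-R (adjusted p = 0.00225) and fell by 0.32 ± 0.085 in RSL3-R cells (adjusted p = 0.00699), and the direct difference was -0.68 (adjusted p = 2.04e-05). NDUFS7 (chr19:1383527-1395589), which carries the last iron-sulphur cluster before ubiquinone, was at 16.7, 15.2 and 16.9 CPM in vehicle and 21.1, 24.0 and 26.0 in erastin-R libraries, a rise of 0.54 ± 0.12 (adjusted p = 0.00165). Its RSL3-R libraries, at 12.2, 16.4 and 15.3 CPM, overlapped vehicle (adjusted p = 0.35). Of the exon length of NDUFS7, 35.8% is overlapped on the opposite strand by the gene AC005329.1, which had 209 counts in all against 2682 for NDUFS7.

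NDUFV2, an iron-sulphur subunit of the NADH-binding arm, had the largest rise of the 82 genes but few counts. It had 54, 58 and 49 counts in vehicle, 172, 153 and 153 in erastin-R and 65, 98 and 81 in RSL3-R libraries. It rose by 1.57 ± 0.16 on the log2 scale for erastin-R and by 0.61 ± 0.17 for RSL3-R (adjusted p = 0.00922; 0.055 without RSL3-R replicate 2). Its processed copy NDUFV2P1 held 21.0% of the counts of both genes together and 10% of the gene's 50-base words occur elsewhere, so reads may be shared. With the counts of its copy added, the change was 1.02 for erastin-R and 0.17 for RSL3-R, the latter no longer called (adjusted p = 0.39).

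NDUFS1, the largest core subunit, fell by 0.25 in both survivor groups (adjusted p = 0.00396 for erastin-R and 0.00464 for RSL3-R, or 0.052 without RSL3-R replicate 1). NDUFS3 fell by 0.43 in RSL3-R cells (adjusted p = 0.00118) and had -0.08 in erastin-R cells (adjusted p = 0.47).

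Of the 29 accessory genes of complex I, 15 fell and 2 rose in erastin-R cells, and 18 fell and 1 rose in RSL3-R cells, where 10 fell without RSL3-R replicate 1. NDUFB3, a subunit of the membrane arm, had the largest decrease in erastin-R cells, at 32.0, 31.3 and 26.0 CPM in vehicle and 23.8, 10.8 and 11.2 in erastin-R libraries (log2 fold change -0.96 ± 0.23, adjusted p = 0.00249). Its fall was -1.44 without erastin-R replicate 1, and it was then called higher in RSL3-R than in erastin-R cells by 0.75 (adjusted p = 4.45e-06), against 0.28 with all libraries (adjusted p = 0.34). NDUFB2 had the largest decrease in RSL3-R cells, at 38.1, 31.0 and 32.3 CPM in vehicle and 19.1, 18.9 and 14.7 in RSL3-R libraries (-0.95 ± 0.22, adjusted p = 0.00300). Of its exon length, 27.9% is overlapped on the opposite strand by BRAF, and 19.8% of that of NDUFB3 by FAM126B. NDUFA13, also known as GRIM-19, was the accessory gene that rose in RSL3-R cells, at 5.18, 4.01 and 4.0 CPM in vehicle and 6.89, 8.87 and 7.88 in RSL3-R libraries (0.84 ± 0.17, adjusted p = 0.00109), and it rose by 0.56 in erastin-R cells (adjusted p = 0.0149). That rise was not called without erastin-R replicate 3, vehicle replicate 2 or vehicle replicate 3 (adjusted p = 0.075, 0.060 and 0.059). It shares 16.1% of its exon length on its own strand with the gene AC011448.1, which had 307 counts in all against 920 for NDUFA13. NDUFV3, of the NADH-binding arm, fell by 0.49 in erastin-R cells (adjusted p = 0.00188), was at -0.02 in RSL3-R cells (adjusted p = 0.92), and the direct difference was 0.47 (adjusted p = 0.00281).

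In complex II, succinate dehydrogenase, which also serves the tricarboxylic acid cycle, 2 of the 4 genes fell in RSL3-R cells and none passed in erastin-R cells with all libraries. SDHA (chr5:218241-256700), the flavoprotein that oxidises succinate, was at 180, 186 and 181 CPM in vehicle, 184, 183 and 199 in erastin-R and 120, 121 and 116 in RSL3-R libraries. The RSL3-R libraries lay clear of all others, and SDHA fell by 0.61 ± 0.057 (adjusted p = 9.66e-07), with a direct difference from erastin-R of -0.67 (adjusted p = 6.97e-07). Its copies SDHAP1, SDHAP2 and SDHAP3 held 12.1% of the summed counts, and the fall was -0.57 with their counts added. SDHD, a membrane anchor, fell by 0.33 ± 0.093 in RSL3-R cells (adjusted p = 0.00980; 0.054 without RSL3-R replicate 2 and 0.052 without vehicle replicate 1) and was 0.43 lower than in erastin-R cells (adjusted p = 0.00149). In erastin-R cells SDHD had 0.11 (adjusted p = 0.34), called as 0.19 without erastin-R replicate 1 (adjusted p = 0.027). SDHB, the iron-sulphur subunit, had 0.08 ± 0.082 (adjusted p = 0.46) and SDHC, the other anchor, 0.02 ± 0.059 (adjusted p = 0.84) in RSL3-R cells.

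Complex III, which passes electrons from ubiquinol to cytochrome c, had 6 of 10 genes lower in RSL3-R and 4 in erastin-R cells. CYC1 (chr8:144095027-144097525), the haem-bearing cytochrome c1, was at 179, 184 and 179 CPM in vehicle, 167, 218 and 239 in erastin-R and 129, 128 and 125 in RSL3-R libraries. It fell by 0.51 ± 0.099 in RSL3-R cells (adjusted p = 7.71e-04) and had 0.20 ± 0.098 in erastin-R cells (adjusted p = 0.093), where replicate 1 lay below the vehicle libraries and replicates 2 and 3 above them. Without that replicate CYC1 rose by 0.34 in erastin-R cells (adjusted p = 5.49e-07), and it also passed with no filter on low counts (adjusted p = 0.025). UQCRFS1, the Rieske iron-sulphur protein, rose by 0.24 ± 0.062 in erastin-R cells (adjusted p = 0.00462), with 95.2, 90.7 and 101 CPM in vehicle against 110 to 117 in erastin-R libraries, and had -0.11 in RSL3-R cells (adjusted p = 0.17). Of the core proteins, UQCRC1 fell by 0.28 in RSL3-R cells (adjusted p = 0.00564), had 0.12 in erastin-R cells (adjusted p = 0.17; 0.21 and called without erastin-R replicate 1, adjusted p = 1.83e-04), and UQCRC2 passed in neither (adjusted p = 0.36 and 0.74).

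Among the small subunits of complex III, UQCRH, the hinge protein, was at 121, 122 and 104 CPM in vehicle, 98.6, 73.7 and 80.2 in erastin-R and 69.8, 81.8 and 67.2 in RSL3-R libraries. It fell by 0.46 ± 0.11 in erastin-R (adjusted p = 0.00217) and 0.67 ± 0.11 in RSL3-R cells (adjusted p = 1.48e-04). Its near copy UQCRHL was at 4.21, 2.83 and 3.59 CPM on average in vehicle, erastin-R and RSL3-R cells and did not pass in the main test. In erastin-R cells it had -0.89 without erastin-R replicate 1 (adjusted p = 0.00301) and -0.58 with no filter on low counts (adjusted p = 0.036). Without that replicate it was also 0.66 higher in RSL3-R than in erastin-R cells (adjusted p = 0.027). Of the 50-base words of UQCRH, 11.2% occur elsewhere. UQCRB, the ubiquinone-binding protein, was at 150, 141 and 133 CPM in vehicle libraries but at 121, 47.4 and 54.9 in erastin-R libraries. Its log2 fold change in erastin-R cells was -0.92 ± 0.24 (adjusted p = 0.00495) and -1.47 without replicate 1. In RSL3-R cells UQCRB had -0.50 ± 0.24 and did not pass with all libraries (adjusted p = 0.094), although its libraries, at 97.8, 104 and 97.2 CPM, all lay below vehicle, and passed without erastin-R replicate 1 (-0.51, adjusted p = 5.85e-09), without erastin-R replicate 2 (adjusted p = 0.036), with no filter on low counts and with only the 2 groups compared.

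In complex IV, cytochrome c oxidase, the ubiquitous isoforms carried nearly all counts and the tissue-restricted ones nearly none. Per length, in FPKM, the deposited value per exon length and library size, vehicle cells had 32.6 ± 1.32 of COX4I1 against 0 counts of COX4I2 in each vehicle library, and 47.9 ± 1.14 of COX7A2 against 0.660 ± 0.12 of COX7A1, the muscle isoform (SD, n = 3). Of the 13 tested genes 9 fell and 1 rose in RSL3-R cells, and 6 fell and 1 rose in erastin-R cells. COX6A1 (chr12:120438090-120440742), the ubiquitous form of subunit VIa, fell most in RSL3-R cells, from 39.1, 27.4 and 23.3 CPM in vehicle to 13.6, 16.0 and 12.6 in RSL3-R and 19.3, 16.2 and 15.1 in erastin-R libraries. The log2 fold changes were -1.09 ± 0.17 (adjusted p = 1.22e-04) and -0.83 ± 0.17 (adjusted p = 8.50e-04), and survivors did not overlap vehicle. Its copies held 19.1% of the summed counts, and with these added the changes were -0.998 and -0.683.

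COX4I1, COX5A and COX5B, which surround the catalytic core, fell in both survivor groups. COX5A fell by 0.31 for erastin-R and 0.60 for RSL3-R (adjusted p = 0.00728 and 5.58e-05), COX5B by 0.57 in each (adjusted p = 1.95e-04 and 2.43e-04), and COX4I1 by 0.27 and 0.20 (adjusted p = 0.00146 and 0.0102), the latter not called without RSL3-R replicate 3 or vehicle replicate 2 (adjusted p = 0.083 and 0.061). COX6B1, which faces cytochrome c, fell by 0.50 and 0.57. NDUFA4 fell by 0.43 in RSL3-R cells (adjusted p = 8.37e-05), and its stress-associated paralog NDUFA4L2 had at most 7 counts in a library. COX7A2 had -0.15 in RSL3-R cells (adjusted p = 0.055, or 0.0131 without erastin-R replicate 1).

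COX7A2L (chr2:42333546-42425088), also called SCAF1, which joins complexes III and IV into supercomplexes, was the one complex IV gene that rose, and it rose in both survivor groups. It was at 47.7 to 49.9 CPM in vehicle, 62.3, 57.9 and 58.1 in erastin-R and 68.4, 67.9 and 70.5 in RSL3-R libraries. The groups did not overlap, and it rose by 0.29 ± 0.064 in erastin-R (adjusted p = 0.00184) and 0.50 ± 0.064 in RSL3-R cells (adjusted p = 2.03e-05), with a direct difference of 0.22 (adjusted p = 0.0121; 0.052 with no filter on low counts). COX8A, a small membrane subunit, was at 68.3, 49.8 and 41.3 CPM in vehicle, 35.3, 73.2 and 74.8 in erastin-R and 28.2, 28.0 and 27.9 in RSL3-R libraries. It fell by 0.92 ± 0.23 in RSL3-R cells (adjusted p = 0.00494) and had 0.20 in erastin-R cells (adjusted p = 0.47), or 0.48 without erastin-R replicate 1 (adjusted p = 3.91e-04). COX7B was at 45.7, 51.0 and 50.1 CPM in vehicle, 44.5, 18.4 and 15.2 in erastin-R and 34.6, 38.8 and 38.5 in RSL3-R libraries. The fall of COX7B in erastin-R cells was -0.91 ± 0.27 (adjusted p = 0.0111) and -1.54 without replicate 1, and its change in RSL3-R cells, -0.39, was not called with all libraries but was without that library (adjusted p = 3.98e-05), with no filter on low counts and with only the 2 groups compared. Its direct difference of 0.52, not called with all libraries, was 1.15 without that library (adjusted p = 2.40e-11) and was also called with quantile normalization and with no filter on low counts. COX7A1, with 0.670 CPM on average in vehicle and 0.496 in RSL3-R cells, was below its 1.12 CPM in erastin-R cells by 1.17 ± 0.38 (adjusted p = 0.0187), which was not called without RSL3-R replicate 1 or 3 (adjusted p = 0.055 and 0.10).

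**Figure D4:**
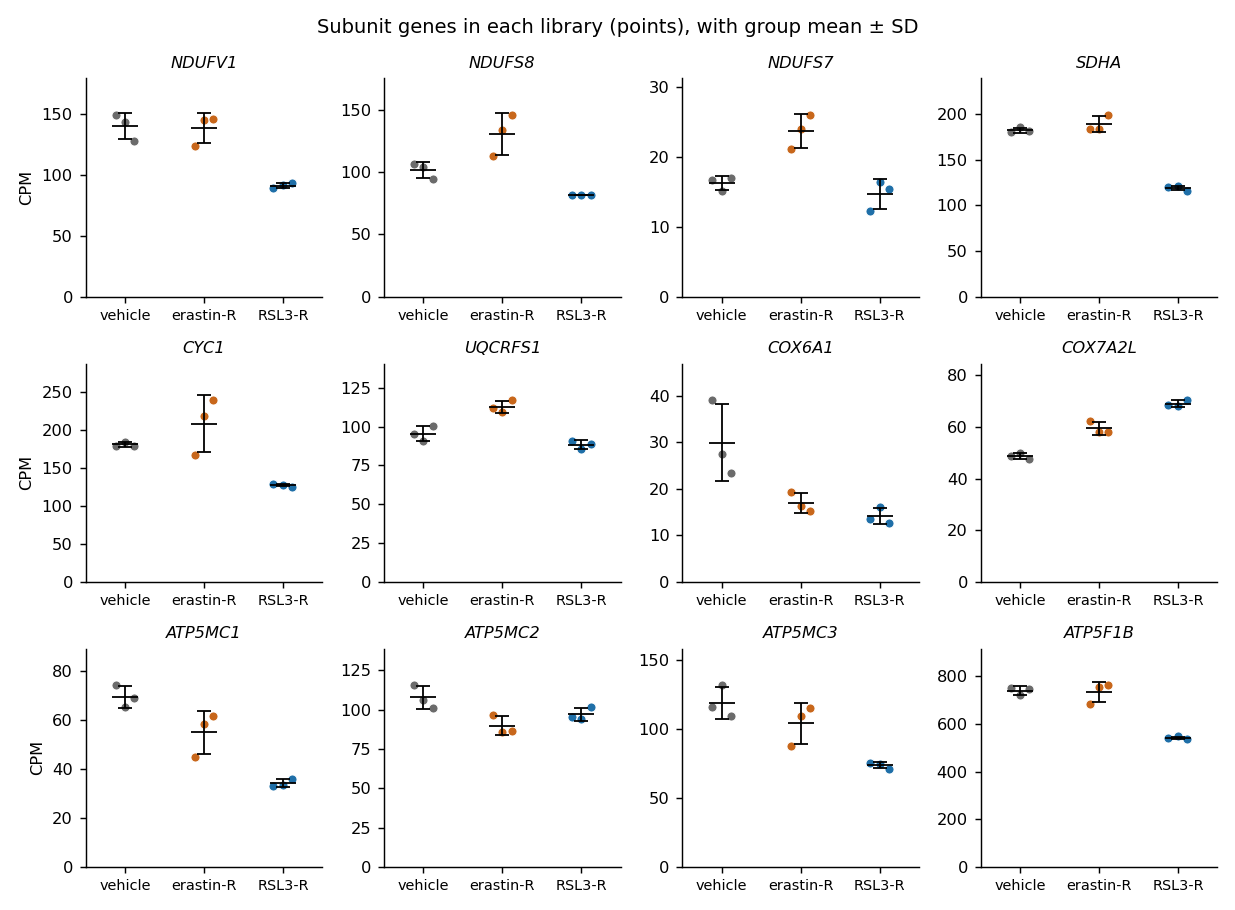
CPM of 12 subunit genes in each library (points), with group means and SDs; each axis starts at 0. COX7A2L is the one gene shown that is higher in both survivor groups, and NDUFS8 the one that lies above vehicle in erastin-R and below it in RSL3-R cells with no overlap.

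Complex V, the ATP synthase, had the largest share of lower genes: 15 of 19 in RSL3-R and 12 of 19 in erastin-R cells, with 0 higher in either by edgeR, by DESeq2 or at an unadjusted p of 0.05. The catalytic head differed between the groups. ATP5F1B (chr12:56638175-56646068), the catalytic beta subunit and the most abundant of the 89 genes per length at 316 FPKM in vehicle cells, was at 753, 720 and 749 CPM in vehicle, 685, 755 and 764 in erastin-R and 542, 548 and 539 in RSL3-R libraries. It fell by 0.45 ± 0.056 in RSL3-R cells (adjusted p = 1.73e-05) and had -0.01 ± 0.056 in erastin-R cells (adjusted p = 0.88). ATP5F1A, the alpha subunit, fell by 0.51 ± 0.063 in RSL3-R cells (adjusted p = 1.63e-05) and had 0.03 ± 0.063 in erastin-R cells (adjusted p = 0.76). Both were lower in RSL3-R than in erastin-R cells, by 0.44 for ATP5F1B and 0.53 for ATP5F1A (adjusted p = 2.69e-05 and 1.35e-05).

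The c subunit, which forms the rotating ring, is made from 3 genes with the same mature protein, and the 3 moved by different amounts. ATP5MC1 (chr17:48892765-48895871) was at 74.2, 65.2 and 68.7 CPM in vehicle, 44.8, 58.1 and 61.6 in erastin-R and 33.1, 33.5 and 35.9 in RSL3-R libraries. The groups did not overlap, and it fell by 1.02 ± 0.10 in RSL3-R (adjusted p = 2.57e-06) and 0.34 ± 0.10 in erastin-R cells (adjusted p = 0.0116; 0.055 without vehicle replicate 1), or by 0.21 without erastin-R replicate 1. ATP5MC3 was at 116, 132 and 109 CPM in vehicle and 75.2, 74.6 and 71.2 in RSL3-R libraries, a fall of 0.69 ± 0.097 (adjusted p = 4.75e-05), and had -0.19 in erastin-R cells (adjusted p = 0.10), called without erastin-R replicate 3 (-0.27, adjusted p = 0.037) and with no filter on low counts. ATP5MC2 was at 116, 106 and 101 CPM in vehicle, 96.8, 86.0 and 86.5 in erastin-R and 95.1, 94.2 and 102 in RSL3-R libraries. It fell by 0.26 ± 0.071 in erastin-R cells (adjusted p = 0.00633), and had -0.15 ± 0.071 in RSL3-R cells (adjusted p = 0.092, or 0.0137 without erastin-R replicate 1). Against erastin-R cells, ATP5MC1 was lower by 0.68 and ATP5MC3 by 0.50 in RSL3-R cells (adjusted p = 1.20e-04 and 7.92e-04), while ATP5MC2 had a difference of 0.11 (adjusted p = 0.21), called as 0.17 without erastin-R replicate 1 (adjusted p = 0.0190) and also with quantile normalization and with the FPKM filter.

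ATP5IF1, which blocks the enzyme when it runs backwards, fell by 0.38 in erastin-R (adjusted p = 0.0225) and 0.52 in RSL3-R cells (adjusted p = 0.00472). The erastin-R fall was not called without erastin-R replicate 2 or 3 or vehicle replicate 1 or 2 (adjusted p from 0.068 to 0.097). ATP5ME, the e subunit, had the largest decrease of complex V in erastin-R cells, -0.95 ± 0.35 (adjusted p = 0.0328), but its vehicle libraries, at 7.20, 5.43 and 2.09 CPM, overlapped the erastin-R libraries, at 3.15, 2.22 and 2.25, and the call was lost without erastin-R replicate 2 or 3 or vehicle replicate 1 or 2 (adjusted p from 0.085 to 0.20), with quantile normalization (0.084) and with only the 2 groups compared (0.057). MYL5 overlaps 61.6% of its exon length on the opposite strand and had 1848 counts in all against 533 for ATP5ME. ATP5MG, the g subunit, fell by 0.60 in erastin-R cells (adjusted p = 2.88e-04), and was 0.34 higher in RSL3-R than in erastin-R cells (adjusted p = 0.0164; 0.079 without erastin-R replicate 3 and 0.071 without RSL3-R replicate 2).

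Counting and gene length touch these counts. Exons of 22 of the 89 genes overlap another counted gene by more than 10% of their length, 15 of them on the opposite strand, and the strand setting of the counting is not given in the sources used here. Without these genes and those with many pseudogene reads, 25 in all and chosen after seeing the data, 28 of 58 genes were lower and 4 higher in erastin-R cells, and 39 lower and 1 higher in RSL3-R cells. Short genes had lower medians than longer ones: the median log2 fold change of protein-coding genes with exons under 2000 bases in all was -0.17 in RSL3-R and -0.04 in erastin-R cells, against -0.02 and -0.005 for longer ones. The subunit genes lay below these medians in both classes, at -0.54 and -0.22 for the 31 short ones and -0.33 and -0.17 for the 51 longer ones. What part length has in the changes was not tested.

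The 13 protein genes of mitochondrial DNA, which encode the partner subunits of complexes I, III, IV and V, had 4 genes higher in RSL3-R cells and 0 lower in edgeR, also at an unadjusted p of 0.05 and in DESeq2. The median was 0.19, the background was 23.8% higher and 24.9% lower, and their summed level was 114% of vehicle. MT-ND4 of complex I rose by 0.27 and MT-ATP6 of complex V by 0.27 in RSL3-R cells (adjusted p = 0.0185 and 0.00275). MT-CO1, the catalytic subunit of complex IV, rose by 0.26 in RSL3-R (adjusted p = 0.0358) and fell by 0.81 in erastin-R cells (adjusted p = 1.02e-05), a direct difference of 1.07. In erastin-R cells 6 mitochondrial genes fell and 1 rose, beside 26.8% and 27.1% of all genes, with a summed level of 77.1% of vehicle. MT-CO3, also of complex IV, fell most there, by 0.97 (adjusted p = 4.92e-06), and MT-ND4 rose by 0.23 (adjusted p = 0.0376). Without erastin-R replicate 1, MT-ND4 rose by 0.12 and 10 rather than 6 genes fell in erastin-R cells, 8 rose and 2 fell in RSL3-R cells, and 13 rather than 6 were higher in RSL3-R than in erastin-R cells. Of all genes, 30.8% then fell in erastin-R cells, 27.7% rose and 29.8% fell in RSL3-R cells, and 27.3% were higher in the direct comparison. Without vehicle replicate 1 or 2, 1 mitochondrial gene rather than 4 rose in RSL3-R cells, and the rise of MT-ND4 in erastin-R cells was not called without either of these libraries or RSL3-R replicate 3.

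Assembly factors, which help to build the complexes, lay near the background of 27.1% higher and 26.8% lower in erastin-R cells: 13 rose and 15 fell of the 50 tested, with a median of 0.03 (17 and 16 without erastin-R replicate 1). In RSL3-R cells 4 rose and 17 fell, with a median of -0.07, against a background of 23.8% higher and 24.9% lower, and 9 rose and 19 fell without erastin-R replicate 1. In erastin-R cells 4 factors of complex I rose and 6 fell of 17, 2 of complex II rose and 1 fell of 4, 1 of complex III rose and 4 fell of 6, 5 of complex IV rose and 3 fell of 20, and 1 of complex V rose and 1 fell of 3. In RSL3-R cells 7 fell and 1 rose for complex I, 1 fell for complex II, 3 fell and 1 rose for complex III, 5 fell and 2 rose for complex IV and 1 fell for complex V. SDHAF1 of complex II assembly rose by 0.90 in erastin-R cells (adjusted p = 8.68e-05), and COX18, which inserts a complex IV subunit into the membrane, rose by 0.86 (adjusted p = 1.20e-06). UQCC3 of complex III assembly fell by 0.84 for erastin-R and 0.90 for RSL3-R, COA7 of complex IV assembly fell by 0.75 in erastin-R cells, and NDUFAF8 of complex I assembly fell by 0.77 in RSL3-R cells. COX19 of complex IV assembly rose by 0.57 in RSL3-R cells. COA1, a factor of complex I and IV assembly, fell by 0.64 in erastin-R and rose by 0.65 in RSL3-R cells, with a direct difference of 1.29 (adjusted p = 1.24e-08). The complex I list also held NDUFAB1, which is itself a subunit of that complex. NDUFAB1 fell by 0.49 in RSL3-R cells (adjusted p = 0.00201) and had 0.26 in erastin-R cells (adjusted p = 0.056). Without erastin-R replicate 1 it was called higher in erastin-R cells, by 0.39 (adjusted p = 1.29e-05).

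Of the 12 genes for the mobile electron carriers, cytochrome c and ubiquinone, 6 fell in each survivor group and 1 rose in erastin-R cells. Over all genes tested, 26.8% were lower and 27.1% higher for erastin-R, and 24.9% and 23.8% for RSL3-R. Without erastin-R replicate 1, 2 carrier genes rose in each survivor group, beside 30.0% of all genes for erastin-R and 27.7% for RSL3-R. COQ7, a hydroxylase of ubiquinone synthesis, fell most in erastin-R cells, by 0.997 (adjusted p = 6.35e-06), and COQ3, a methyltransferase of the same path, most in RSL3-R cells, by 0.91 (adjusted p = 5.41e-04). CYCS, cytochrome c itself, fell by 0.88 in erastin-R (adjusted p = 2.51e-07) and 0.81 in RSL3-R cells (adjusted p = 5.55e-07), and PDSS1, which makes the ubiquinone tail, fell by 0.79 and 0.83. COQ8A, an atypical kinase, was the gene that rose in erastin-R cells, by 0.82 (adjusted p = 2.58e-07).

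Of 11 regulators of these genes, 6 rose and 3 fell in erastin-R cells, where 27.1% of all genes were higher and 26.8% lower. In RSL3-R cells 3 fell and 0 rose in edgeR and in DESeq2, and 1 rose at an unadjusted p of 0.05 or, by edgeR, without erastin-R replicate 1. The background there was 23.8% higher and 24.9% lower. With erastin-R replicate 1 left out, 4 regulators fell in each survivor group, beside 30.8% of all genes for erastin-R and 29.8% for RSL3-R. POLRMT, the mitochondrial RNA polymerase, rose by 1.13 in erastin-R cells and had 0.06 in RSL3-R cells (adjusted p = 0.73), and PPARGC1B, a coactivator, rose by 0.73 in erastin-R cells and had -0.19 in RSL3-R cells (adjusted p = 0.30). GABPB1, a partner of GABPA, fell by 0.69 for erastin-R and 0.61 for RSL3-R, and TFAM, which packs mitochondrial DNA, by 0.60 and 0.40. NRF1, whose motif was searched, fell by 0.29 in RSL3-R cells (adjusted p = 0.00952).

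Of 7 genes of the outer membrane and matrix that mark mitochondrial mass, 4 fell and 2 rose for erastin-R and 6 fell for RSL3-R. The background was 26.8% lower and 27.1% higher for erastin-R, and 24.9% and 23.8% for RSL3-R. The summed level of the 7 genes was 87.8% of vehicle for erastin-R and 74.1% for RSL3-R, beside 91.1% and 77.0% for the nuclear subunits. Without erastin-R replicate 1, TOMM20 was also called in RSL3-R cells, as higher (0.14, adjusted p = 0.00238). TOMM40, of the protein import pore, fell by 0.98 in RSL3-R cells (adjusted p = 3.70e-07), and VDAC3, an outer membrane channel, by 0.85 there and 0.53 in erastin-R cells. HSPD1, a matrix chaperone, fell by 0.55 in erastin-R cells, where VDAC2 rose by 0.33 and TOMM20 by 0.25.

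**Figure D5:**
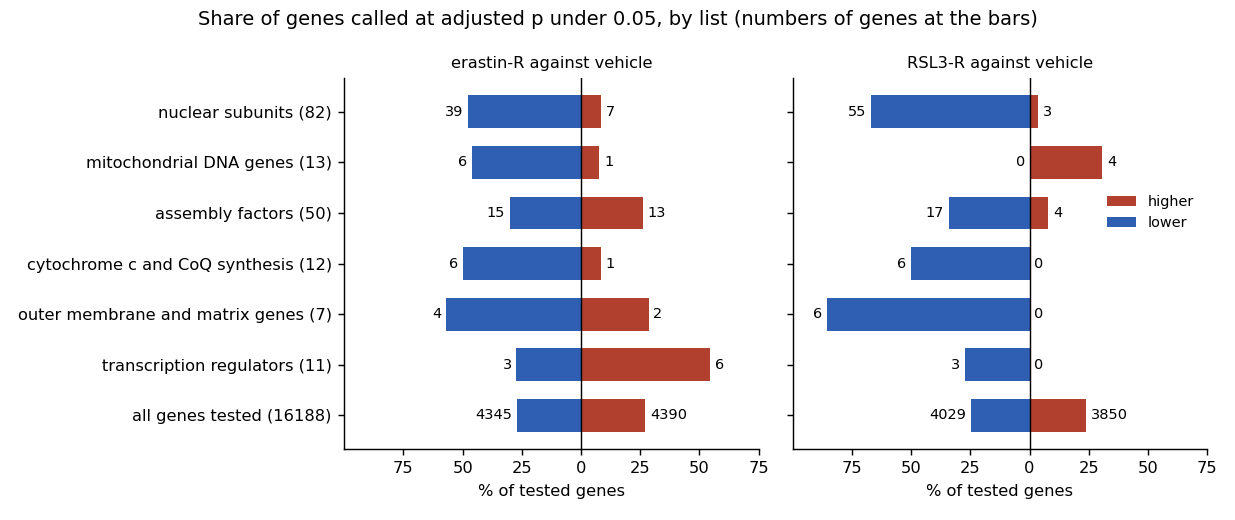
Share of tested genes called at an adjusted p of 0.05 in each list, lower to the left and higher to the right, with the number of genes at each bar and the number tested beside the list's name. Nuclear subunits have 55 lower and 3 higher in RSL3-R cells, where mitochondrial DNA genes have 0 lower and 4 higher.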

How the data were processed

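The authors deposited, for each library, a raw count per gene and an FPKM value made from it. The methods state that uniquely mapped reads in exonic regions of oligo(dT)-selected RNA were used, and the submitters' processing notes name HISAT2 2.0.5 and featureCounts 1.5.0-p3; the strand setting is not given in the sources used here. Gene coordinates are those of GENCODE 29 (GRCh38). The deposited FPKM values divide by the length of all exons together and served for levels per length and for 1 alternative filter.

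Differences were tested on the counts by edgeR 4.0.16 under R 4.3.3 (TMM scaling, filterByExpr, quasi-likelihood test, 1 model of all 9 libraries, no covariate). Groups were taken from the sample labels. Adjusted p-values (Benjamini-Hochberg) cover 16188 genes, and genes were called at an adjusted p of 0.05. Each standard error was derived from the F statistic of its test, and all ± values on the log2 scale are standard errors. Alternatives were DESeq2 1.42.0, quantile normalization with limma 3.58.1, library totals, no filter, a mean FPKM of at least 5, pairs of groups, a replicate block, added pseudogene counts, the 2-fold limit and leaving out each library. The fits were tested on simulated counts.

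The genes named are the called extremes of each complex, the core and catalytic subunits, isoform pairs, genes called in opposite directions and genes not tested, with the 2 largest called changes each way of other lists (assembly factors as 1 list) and NRF1, added after its values were seen; 1 gene that the rule names is not reported here. The members, the lists and this rule were chosen with earlier results of these data known. Motif matches counted a gene once over all its windows. Figures were drawn with matplotlib 3.10.9.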

Additional observations from a re-analysis of the deposited data

Results flagged for a closer look

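Between the survivor groups, 11 named subunit genes had fold changes of opposite sign against vehicle and differed in the direct comparison of RSL3-R with erastin-R cells (edgeR, adjusted p under 0.05, 3 libraries a group). Their direct log2 differences were -0.69 for NDUFS7, -0.68 for NDUFS8, -0.67 for SDHA, -0.43 for SDHD, -0.71 for CYC1, -0.40 for UQCRC1, -0.35 for UQCRFS1, -1.17 for COX7A1, -0.21 for COX7A2, -1.12 for COX8A and -0.53 for ATP5F1A. All 11 were lower in RSL3-R than in erastin-R cells. With all libraries only NDUFS8 was called in both comparisons with vehicle, so for the other 10 the sign against vehicle was not shown in at least 1 of them. Leaving out erastin-R replicate 1, SDHD, CYC1, UQCRC1 and COX8A were also called in both, as higher in erastin-R and lower in RSL3-R cells. Among the 11, the calls of COX7A1 and COX7A2 in the direct comparison were lost in some alternative settings, with adjusted p up to 0.10 and 0.13.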

How the results depend on the processing

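The subunit genes had a median below 0 in all 3 comparisons under all alternatives run. In erastin-R against vehicle, the 7 higher genes became 4 with a mean FPKM of at least 5, 4 without genes in doubt and 1 with the 2-fold limit. They ranged from 6 to 14 when leaving out 1 library. The 39 lower became 0 with the 2-fold limit and ranged from 33 to 44. With both the 2-fold limit and erastin-R replicate 1 left out, 5 were lower and 2 higher. The median ranged from -0.227 to -0.165 when leaving out 1 library. In RSL3-R against vehicle, the 3 higher became 1, 1 and 0 under the same settings, and the 55 lower became 2 with the 2-fold limit and ranged from 41 to 62 when leaving out 1 library. The median was -0.35 with quantile normalization and -0.34 with the FPKM filter, and ranged from -0.42 to -0.35. In RSL3-R against erastin-R, the 5 higher became 11 with quantile normalization, 8 with the FPKM filter and 0 with the 2-fold limit, and ranged from 3 to 16. The 31 lower became 2 with the 2-fold limit. With both the 2-fold limit and erastin-R replicate 1 left out, 4 were lower and 1 higher. The median was -0.026 with quantile normalization, -0.05 with the FPKM filter and -0.076 with only the 2 groups, and ranged from -0.169 to -0.054. The cause was not tested. Where a group was left with 2 libraries the fit pooled the spread of all groups.

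Libraries shared only a number across groups: the deviations of same-numbered libraries correlated between -0.090 and 0.052. With a replicate block, 37 genes were lower for erastin-R and 54 for RSL3-R, and no call of the named subunit genes was lost. Of 71 calls of named subunit genes, 57 held in every setting run and 14 were lost in at least 1; none reversed.

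Changes of genes with few counts, such as NDUFA7, COX7A1 and ATP5ME, are measured less well, and the 7 untested genes give no result. Why their counts were low was not tested. The common coefficient of variation between libraries of a group, from the edgeR dispersion, was 8.56%.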
